A study of Mus musculus with 8 samples.

Results

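Frame-shifting alternative cassette exons are exons that a transcript can include or skip and whose length is not a multiple of 3. They were chosen from the deposited splicing tables by 4 conditions: an exon length of 28 to 299 nt, a length not divisible by 3, a mean of at least 10 reads per library, and an inclusion level between 10% and 90% in spermatocytes or in round spermatids. The level was the length-normalised share of inclusion reads, with the reads of the 4 libraries of a stage summed. The rule found 3314 exons in 2498 genes, 7.28% of the 45500 cassette exons in the tables. Polyadenylated RNA came from germ cells of adult C57BL/6 mice, sorted by FACS after Hoechst staining. The 4 groups were Larp7 knock-out spermatocytes, wild-type spermatocytes, Larp7 knock-out round spermatids and wild-type round spermatids, with 2 libraries each. The knock-out is described as conditional, and what drives the deletion is not given in the sources used here. Nothing in the labels says that the libraries of a group came from separate animals, so p-values measure the spread between these libraries, which may be technical.

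Within each stage the deposited tables number 2 sample groups, and the genotype of neither is named. Every difference within a stage is thus given as the first sample group minus the second, with no genotype direction. The first group of one stage is not matched by name to the first group of the other. In both stages it was the first group that had few inclusion reads of an exon of the targeted gene Larp7. The stage of each table is named, so the comparison of stages has a direction.

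When a cassette exon within coding sequence has a length that is no multiple of 3, the included and the skipped transcript are read in different frames after it. One of the frames then often meets an early stop codon, and transcripts with such a stop upstream of a later exon junction are targets of nonsense-mediated decay. Several SR proteins and hnRNPs are known to limit their own amount through such exons. Spermatocytes are the germ cells in meiosis and round spermatids are their haploid products. Testis is known for a large number of alternative exons. Larp7 encodes a partner of the 7SK RNA and also guides modification of the U6 spliceosomal RNA.

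The exon edges of some of these exons can be read from the RefSeq promoter windows (GRCm38.p6, the build also called mm10), where an exon lies close to a gene start. The windows below are 30 bases long, 5′ to 3′ on the strand of the gene. An acceptor window has 20 intron bases and then 10 exon bases, a donor window has 10 exon bases and then 20 intron bases, and capitals mark the AG at the end of the upstream intron or the GT at the start of the downstream intron. Ap1m1 and Yipf2 are shown as examples of exons with both edges covered, and Gm10339 because its exon was called in both stages. Mllt11, Akap4 and Hnrnph1 are examples of exons with many reads. Other exons with both edges covered (such as that of BC004004) or with many reads (such as that of Agpat3) are not shown.
Ap1m1 acceptor (215 nt, chr8:72241724-72241938, plus strand): tgtctgtcgctctacctcAGgctgtcagag
Ap1m1 donor: tcgacaactgGTgagttccagacctgggcc
Gm10339 acceptor (175 nt, chr14:7404698-7404872, minus strand): agttcggtgcattcttccAGgcattctgga
Gm10339 donor: gaggtgggagGTaagttcctagcagtggtg
Yipf2 acceptor (61 nt, chr9:21592528-21592588, minus strand): tgatgcggttctgtccacAGagtgcgatgc
Yipf2 donor: gccttccacgGTgagtggagcccggaagtg
Mllt11 acceptor (176 nt, chr3:95228084-95228259, minus strand): taggaggggctgcattgcAGgggagaccca
Akap4 acceptor (176 nt, chrX:7068180-7068355, plus strand): agatacttgtcataccacAGggtcagagcc
Hnrnph1 donor (127 nt, chr11:50377314-50377440, plus strand): actccggcggGTaggtctagagaacggttt

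Acceptor windows were covered for 49 of the exons, and 48 of these had AG at the intron end. Donor windows were covered for 22, and each of the 22 had GT at the intron start. Over 32851 promoter windows, each read on the strand of its gene, 7.86% had AG and 5.07% had GT at the same bases of the window. The whole exon was covered for 16 members, and 5 of them held a stop codon (TAA, TAG or TGA) in each of the 3 frames, Ap1m1 and Gm10339 among them. A stop in all 3 frames was found in 74.4% of the promoter windows over a stretch as long as the Ap1m1 exon and in 17.0% over one as long as the Yipf2 exon, which had stops in 2 frames. Inclusion of the Ap1m1 exon (an adaptor complex subunit) was 18.7%, 17.5%, 22.1% and 18.9% in the spermatocyte libraries and 28.9%, 31.6%, 30.6% and 29.4% in those of round spermatids. All 4 spermatid libraries lay above the spermatocyte libraries. The Yipf2 exon (a membrane protein of the Golgi) ranged from 32.8% to 51.4% in spermatocytes and overlapped with round spermatids, which ranged from 23.5% to 44.7%.

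Summed over the 5 event types, spermatocyte libraries held between 51786242 and 102000320 reads and round spermatid libraries between 49904607 and 93265932. The deepest library of each stage was the second of the first sample group. Over the frame-shifting exons the sums were 690173 and 1268660 against 791839 and 799108 in spermatocytes, and 684749 and 1255224 against 807369 and 779736 in round spermatids. A read can count in several overlapping events, so these sums are not library sizes. Event reads of genes that mark spermatocytes came to 875 and 779 per 1000000 event reads in the first against 751 and 637 in the second group of spermatocytes, and to between 202 and 259 in round spermatid libraries. Those of round spermatid markers came to 254 and 308 against 316 and 347 per 1000000 in spermatocytes and to between 868 and 1115 in round spermatids. Elongating spermatid markers stood at 339 and 409 against 515 and 470 in spermatocytes and at 1775 and 2266 against 2942 and 2361 in round spermatids. For each of these lists the groups of spermatocytes did not overlap. Markers of spermatogonia stood in spermatocytes at 96.2 and 36.1 per 1000000 for the first sample group and at 13.0 and 12.7 for the second. Those of Sertoli cells stood at 17.9 and 13.9 against 4.27 and 8.30. Those of Leydig, peritubular and immune cells, with events in 7 of 13 genes, stood at 12.9 and 7.94 against 6.51 and 8.63 and overlapped. Events in spermatocytes covered 10 of 13 spermatocyte markers, 8 of 13 of round spermatids, 4 of 10 of elongating spermatids, 8 of 11 of spermatogonia and 4 of 12 of Sertoli cells. Events in round spermatids covered 11 of 13 spermatocyte markers, 10 of 13 of round spermatids and 4 of 10 of elongating spermatids. For spermatocyte and round spermatid markers the values of the stages thus rest on unlike sets of genes. Prm1, Prm2, Tnp1, Sox9 and Amh had no event. The part of these marker differences in the results between sample groups was not tested. In bulk libraries fewer cells of a type and less RNA per cell cannot be told apart.

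The quartiles of exon length were 77, 112 and 155 nt, beside 83, 115 and 155 nt over all cassette exons of 28 to 299 nt, and 1662 left a remainder of 1 nt and 1652 a remainder of 2 nt after division by 3. Exons that met the same conditions but had a length divisible by 3 numbered 2349, with length quartiles of 72, 105 and 147 nt. Frame-shifting exons made up 58.5% of the exons in the 10% to 90% range and 62.0% of 33914 exons with as many reads that lay outside it in both stages. The median level in range was 72.7% in spermatocytes and 69.9% in round spermatids, beside 66.0% and 63.1% for exons divisible by 3. Levels below 50% were less frequent among frame-shifting exons, at 30.5% against 37.2% in spermatocytes and 32.0% against 38.5% in round spermatids. The range itself used these levels, so they are a description. At the lower edge of the range lay a 58-nt Tex30 exon at 10.1% inside and a 79-nt exon of 4930513N10Rik at 9.99% outside. At the upper edge an 86-nt Afg3l1 exon (an AAA protease subunit of mitochondria) stood just under 90% inside the range and an 88-nt Disp1 exon just above it. Of the 3314 exons, 2518 were in range in spermatocytes, 2268 in round spermatids and 1472 in both.

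Of 3155 frame-shifting exons whose gene symbol matched RefSeq, 88.9% lay in protein-coding genes and 9.98% in long non-coding RNA genes. The shares were 91.5% and 7.57% for exons divisible by 3 and 96.2% and 3.28% for all cassette exons. Their median position along the gene was 49.4% of its span from the start, beside 58.8% for exons divisible by 3 and 59.5% for all cassette exons. Most genes held 1 such exon (1919 of 2498), while 168 genes held 3 or more. Fam71d, Gm29154 and the transcription repressor gene Zbtb20 held 7 each. The 7 Zbtb20 exons were thinly read, with 127 to 365 reads over both stages. In Fam71d the 205-nt exon had 24350 reads, with spermatocyte levels of 36.7% and 36.7% in the first against 55.8% and 46.4% in the second sample group. The groups did not overlap, and limma did not call this exon in either stage.

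The 5 exons with the most reads lay in Odf2, Swi5, Cep63, Tulp2 and March10. The most read was a 232-nt exon of Odf2, an outer dense fibre and centriole protein, with 117414 reads. It was included at 59.7% and 55.8% against 58.1% and 53.5% in spermatocytes and at 70.6% and 66.8% against 68.1% and 62.9% in round spermatids. The sample groups overlapped in both stages, and limma did not call the exon in either (adjusted p = 0.714 and 0.66). A 206-nt exon of the centriole gene Cep63 stood at 76.8% and 80.1% against 83.0% and 86.7% in spermatocytes, with no overlap between the groups and an adjusted p of 0.113. In round spermatids its levels were 88.0%, 91.5%, 90.2% and 91.7%. An 82-nt exon of March10, a ubiquitin ligase of spermatids, varied least, with spermatocyte levels from 85.2% to 86.6% and round spermatid levels from 91.7% to 92.2%. A 139-nt exon of Tulp2 ranged from 67.4% to 83.4% in spermatocytes, while round spermatids stood at 91.7% to 93.5%. The 284-nt Swi5 exon, second with 74626 reads, is described with the spermatocyte calls.

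Whether inclusion differed between the sample groups was asked first in spermatocytes, where 36 of 2834 tested exons in 34 genes were called (1.27%). In 31 of them inclusion was lower in the first sample group and in 5 it was higher. The 31 include the exon of the targeted gene Larp7, which met the rule only with the reads of both groups summed. The background over all 61122 tested events was 0.537%, and over the 43939 cassette exon events 0.469%, with 0.385% lower and 0.0842% higher in the first group. Among exons divisible by 3 the share was 1.94% (40 of 2066), with 28 lower and 12 higher. The library levels of the groups did not overlap in any of the 36 called exons, and 31 of them were at least 10 percentage points apart. Among all tested members 658 (23.2%) were so far apart without overlap, against 3.81% of cassette exon events, and 456 (16.1%) had an unadjusted p below 0.05, against 8.43%. Events near 0% or 100% cannot be 10 points apart, so these shares follow in part from the range. Over all tested members the median difference was -2.46 points, and the library medians were 72.0% and 72.7% against 77.1% and 76.0%. The direction of the calls is thus also the direction in which the first group's libraries lay as a whole. The test was limma on log2 odds of inclusion, with p-values adjusted by Benjamini-Hochberg over all events and a call below 0.05.

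The set of called exons changed when a library of either group was left out, and most for the second group. Without its first or its second library limma called 0 members (176 and 154 had an unadjusted p below 0.05), and when a library of the first group was left out, it called 132 (the first) and 116 (the second), which shared 2 and 6 exons with the 36. A quasi-binomial test called 48, all 36 among them, whereas limma without count weights called 2, and it called 0 when the spread followed total reads and the added reads were unscaled. With the cassette exon table fitted alone it called 47, which shared 27 with the 36; the exons of Mettl17, Ncaph, Dcdc2b, Herc4, Lipe, Ndufaf7, Stk38, Ccdc142 and D830044I16Rik were then not called. By the authors' deposited table, taking an FDR below 0.05 and levels at least 0.1 apart, 361 members were called against a background of 2.27% of cassette exon events.

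**Figure D1:**
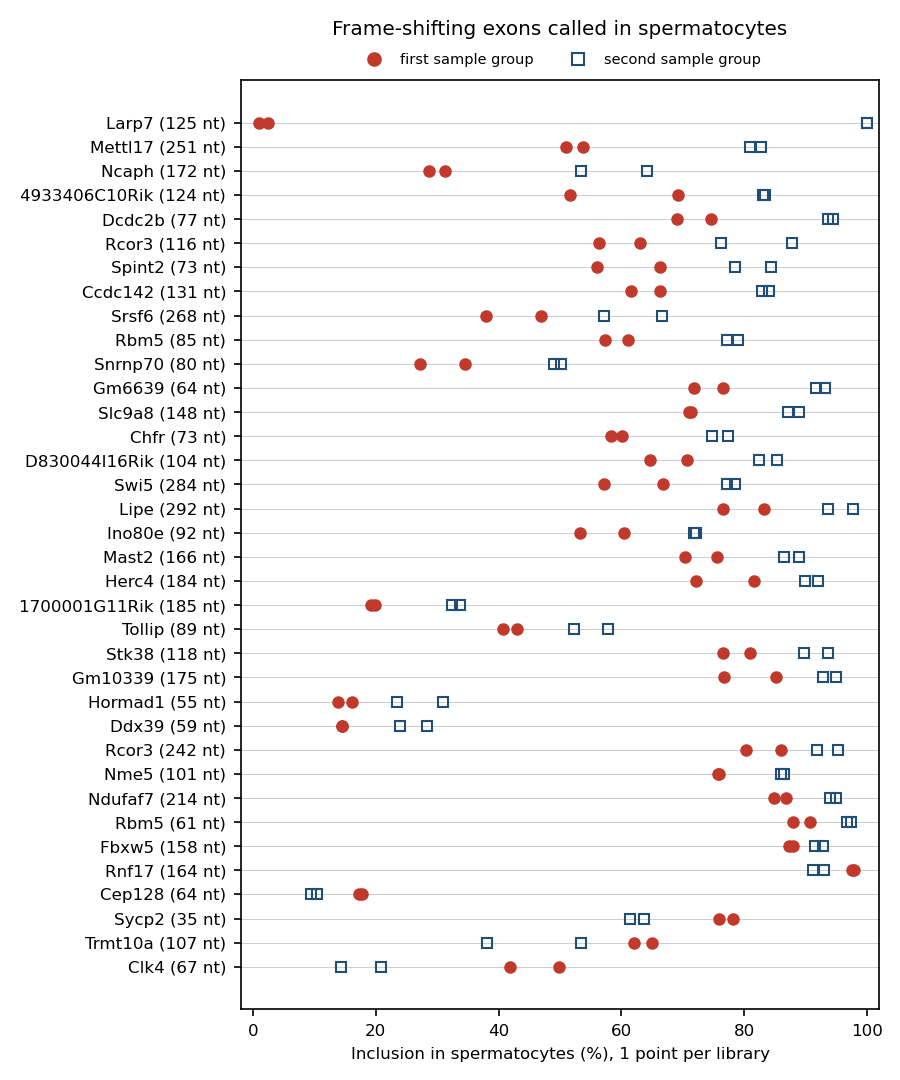
Inclusion level (percent, horizontal axis) of the 36 frame-shifting exons called between the sample groups of spermatocytes, 1 row per exon and 1 point per library. Filled circles are the 2 libraries of the first sample group and open squares the 2 of the second. Points of the groups do not overlap in any row, and the first group is lower in 31 rows and higher in 5.

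Splicing factors were among the called genes. An 80-nt exon of Snrnp70 (chromosome 7, 45395093 to 45395172), the gene of a U1 snRNP protein, had inclusion levels of 27.2% and 34.5% for the first sample group against 49.0% and 50.2% for the second. Its log2 odds of inclusion differed by -1.07 (SE 0.22, limma adjusted p = 0.00074). In round spermatids the same exon stood at 73.1% and 65.5% against 75.4% and 66.8%, with overlapping groups. Rbm5, a regulator of exon choice that male germ cells need, had 2 called exons. The 85-nt exon had 743 and 1471 inclusion reads against 353 and 598 skipping reads in the first group, and 1354 and 1013 against 229 and 190 in the second, for a difference of -19.0 points (limma adjusted p = 2.12e-05). The 61-nt exon lies further upstream and was included at 88.0% and 90.6% against 97.4% and 96.7% (limma adjusted p = 0.000116). It entered the rule through round spermatids, where it stood at 87.1% and 81.7% against 91.3% and 94.0%. In both Rbm5 exons and both stages the first group had the lower mean.

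A 268-nt exon of the SR protein gene Srsf6 (chromosome 2, 162932815 to 162933082) stood at 38.0% and 46.9% in the first group against 57.2% and 66.7% in the second (limma adjusted p = 0.000436). It lies inside an intron that the tables list as retained, and the same intron was called too: its retention was 21.2% and 27.5% against 41.8% and 49.8% (limma adjusted p = 6.4e-07). Reads inside the exon count as inclusion whether or not its own introns were removed, so inclusion of the exon and retention of the intron around it cannot be told apart here. The same holds for the 251-nt exon of Mettl17, a gene for mitochondrial ribosome assembly, at 53.7% and 50.9% against 80.9% and 82.7%, whose surrounding intron was retained at 46.6% and 43.4% against 77.4% and 80.2%. A 59-nt exon of Ddx39, a helicase gene of mRNA export, was at 14.5% and 14.6% against 24.0% and 28.3%. Clk4, which encodes a kinase that phosphorylates SR proteins, had a called 67-nt exon with more inclusion in the first group. It had 180 and 258 inclusion reads against 125 and 247 skipping reads in the first group, and 52 and 85 against 215 and 222 in the second. That is a level difference of 28.3 points (log2 odds 1.88, SE 0.34, limma adjusted p = 3.38e-05). In round spermatids it was 35.5% and 28.7% against 21.8% and 16.7%, again higher in the first group and without overlap, and was not called (limma adjusted p = 0.595).

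Genes of meiosis and the germ line went both ways. A 35-nt exon of Sycp2, which forms part of the chromosome axis in meiosis, was included at 75.9% and 78.1% against 61.4% and 63.7% (limma adjusted p = 8.44e-05). By contrast, a 55-nt exon of Hormad1, a chromosome axis protein, stood at 13.8% and 16.2% against 23.4% and 30.9% (limma adjusted p = 0.000434). The Swi5 exon (chromosome 2, 32280227 to 32280510) had the most reads of the 36. Swi5 is a partner of the strand exchange recombinases, and the exon was included at 57.2% and 66.7% against 77.2% and 78.5% (log2 odds -1.04, SE 0.15, limma adjusted p = 3.41e-08). In round spermatids it was higher in the first group, at 81.9% and 80.8% against 80.8% and 76.0%. The groups did not overlap there either, and the difference of 2.98 points was not called (limma adjusted p = 0.641). A 164-nt exon of Rnf17, a Tudor domain protein of germ granules, was nearly always included in spermatocytes, at 97.6% and 97.9% against 93.1% and 91.3% (limma adjusted p = 0.00413). It entered the rule through round spermatids, where it was lower in the first group, at 73.3% and 71.7% against 77.0% and 76.0%. The groups did not overlap there either, and limma did not call it. In Cep128, a centriole gene, a 64-nt exon was at 17.2% and 17.8% against 10.5% and 9.4%. A called 101-nt exon of Nme5, a gene of the sperm flagellum, was at 75.7% and 75.9% against 86.5% and 86.0%. Slc9a8, a sodium/proton exchanger needed for the acrosome, had a 148-nt exon at 71.3% and 70.9% against 87.0% and 88.9%.

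The remaining called exons lay in genes of many functions. The widest gap besides Larp7 and Mettl17 was in a 172-nt exon of the condensin gene Ncaph, at 28.6% and 31.3% against 64.2% and 53.5%, but its libraries had between 52 and 97 inclusion reads and its adjusted p was 0.0472 (limma). Rcor3, a corepressor gene, had 2 called exons that share their upstream edge and their skipping reads, of 116 nt (56.4% and 63.1% against 87.8% and 76.3%) and 242 nt (80.2% and 85.9% against 95.3% and 91.9%). They are therefore 1 observation counted as 2. A 73-nt exon of the protease inhibitor gene Spint2 was at 56.0% and 66.2% against 84.4% and 78.4%, and one of the checkpoint ligase gene Chfr, also 73 nt, at 58.4% and 60.1% against 74.8% and 77.3%. Ino80e, a subunit gene of a chromatin remodeller, had a 92-nt exon at 53.3% and 60.5% against 71.8% and 72.1%. The 89-nt exon of Tollip, an adaptor of Toll-like receptor signalling, was at 40.7% and 42.9% against 52.2% and 57.8%. Mast2, Stk38, Herc4, Lipe, Ndufaf7, Fbxw5, Dcdc2b, Ccdc142 and the predicted or uncharacterised genes 4933406C10Rik, 1700001G11Rik and Gm6639 also had an exon called lower in the first group. The smallest called difference was that of Fbxw5, at 88.0% and 87.3% against 91.6% and 92.9%. The 95% Wilson interval of a called exon in 1 library was between 0.105 and 24.5 points wide, with a median of 5.90, and covers counting error only.

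In round spermatids 11 of 2736 tested exons in 10 genes were called (0.402%), 9 lower and 2 higher in the first sample group, against a background of 0.131% over 48060 events and 0.135% over 34125 cassette exon events (0.0938% lower and 0.041% higher). Exons divisible by 3 had 7 calls of 1978 tested (0.354%), 1 lower and 6 higher. The groups did not overlap in any of the 11, which also include the Larp7 exon. Among all tested members 486 (17.8%) were at least 10 points apart without overlap, against 3.62% of cassette exon events, and 300 (11%) had an unadjusted p below 0.05, against 6.34%. The authors' deposited table called 196, against a background of 1.41%. Over all tested members the median difference was -1.15 points, and the library medians were 73.4% and 73.9% against 75.9% and 75.7%. As in spermatocytes, leaving out either library of the second group left limma with 0 calls (133 and 138 with an unadjusted p below 0.05), and leaving out a library of the first group gave 41 (the first) and 36 (the second), which shared 4 and 1 exons with the 11. The quasi-binomial test called 20, the 11 among them.

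**Figure D2:**
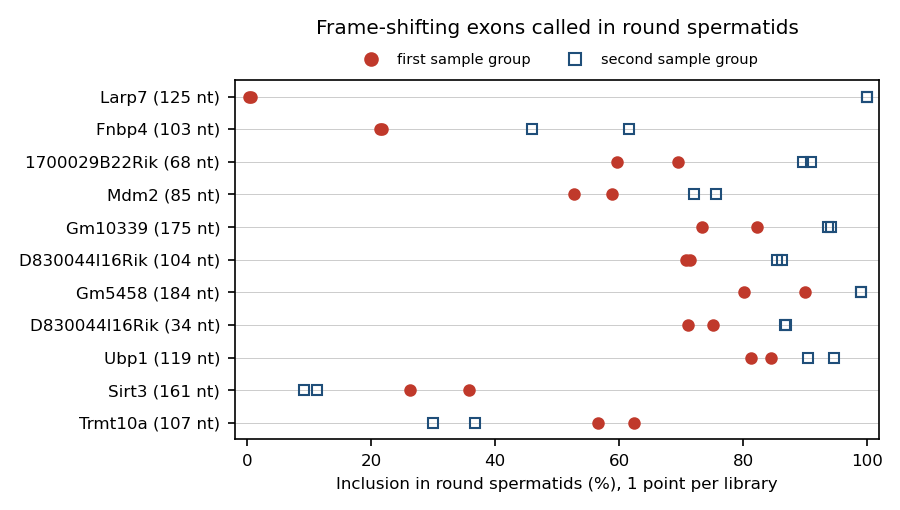
Inclusion level (percent, horizontal axis) of the 11 frame-shifting exons called between the sample groups of round spermatids, 1 row per exon and 1 point per library, drawn as for spermatocytes. The first sample group is lower in 9 rows and higher in those of Sirt3 and Trmt10a.

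The largest round spermatid difference besides Larp7 was in a 103-nt exon of Fnbp4, a formin-binding protein gene (chromosome 2, 90767853 to 90767955). It was included at 21.4% and 21.7% against 61.6% and 46.0%, from 24 to 76 inclusion reads per library (limma adjusted p = 0.0351). In spermatocytes it stood at 36.8% and 38.4% against 52.6% and 48.7% and limma did not call it (adjusted p = 0.572). An 85-nt exon of Mdm2, the gene of a ubiquitin ligase that acts on the tumour suppressor Trp53, was included at 58.9% and 52.8% against 75.6% and 72.1%, with a log2 odds difference of -1.20 (SE 0.27, limma adjusted p = 0.00888). Its spermatocyte levels were 52.2% and 46.3% against 58.2% and 55.1%. A 161-nt exon of Sirt3, the gene of a mitochondrial deacetylase, was higher in the first group, with 35.8% and 26.2% against 11.2% and 9.17% (log2 odds 1.95, SE 0.37, limma adjusted p = 0.000552). In Ubp1, a transcription factor gene, a 119-nt exon was at 84.6% and 81.4% against 94.6% and 90.5%, and a 68-nt exon of 1700029B22Rik at 59.8% and 69.4% against 89.6% and 90.9%. A 184-nt exon of Gm5458 was at 90.1% and 80.2% against 99.0% and 99.0%. Near-identical copies of this gene exist, which leaves the origin of its reads uncertain.

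Calls in both stages were made for 4 exons, in Larp7, Trmt10a, D830044I16Rik and Gm10339, each with the same sign in both. In the targeted gene, a 125-nt Larp7 exon (ENSMUSG00000027968.11) had 17 and 18 inclusion reads in spermatocytes of the first sample group and 3 and 14 in its round spermatids, where the second groups had between 5947 and 6720. The second groups had 0 skipping reads in each library, which allows a level down to 99.9%. The first groups stood at 2.40% and 0.951% in spermatocytes and at 0.279% and 0.598% in round spermatids. No single library thus had a level within the range of the rule. The exon met the rule only because the reads of both groups were summed, at 83.2% in spermatocytes and 78.8% in round spermatids. It is still counted among the calls of each stage and among those made in both. A deletion of the exon itself and its skipping cannot be told apart in these tables. Trmt10a encodes a tRNA methyltransferase, and its 107-nt exon (chromosome 3, 138146287 to 138146393) had levels of 65.0% and 62.0% against 53.3% and 38.0% in spermatocytes and of 62.4% and 56.6% against 36.8% and 30.0% in round spermatids. The limma adjusted p was 0.0071 and 0.00933. D830044I16Rik had 2 overlapping exons of 104 and 34 nt that share an upstream edge and their skipping reads. The 104-nt exon was at 70.6% and 64.7% against 85.4% and 82.4% in spermatocytes and at 70.7% and 71.5% against 86.3% and 85.5% in round spermatids, and the 34-nt exon was called in round spermatids. Both lie inside an intron listed as retained, at 60.5% and 45.6% against 61.4% and 63.3% in spermatocytes and 61.8% and 59.8% against 71.4% and 70.7% in round spermatids. The retention was not called (limma adjusted p = 0.561 and 0.437), and for these exons too it cannot be told apart from inclusion. The Gm10339 exon, whose splice sites are printed above, was at 85.2% and 76.7% against 95% and 92.8% in spermatocytes and at 82.2% and 73.4% against 94.2% and 93.7% in round spermatids.

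Of the 36 exons called in spermatocytes, 33 were tested in round spermatids, where 29 had the same sign and 21 of these did not overlap between the groups. All 11 exons called in round spermatids had the same sign in spermatocytes, and 10 of them did not overlap there. Over all tested members, 60.8% in spermatocytes and 56.5% in round spermatids had lower log2 odds in the first group. The share of all members with the same sign in both stages was not computed, so these counts are a description. They include Larp7 and the exons of Rcor3 and D830044I16Rik that share skipping reads. The difference of an exon was not tested between stages, because the labels do not match the sample groups of the stages by genotype. Inclusion reads of the Larp7 exon were few in the first group of both stages.

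Gene lists placed these calls among the other frame-shifting exons of each process. Over all tested members the share called was 1.27% in spermatocytes and 0.402% in round spermatids, and at such shares a list of this size holds few calls or none. Of 65 splicing regulators, 26 held 45 such exons, of which limma called 3 lower and 1 higher in spermatocytes and 0 in round spermatids. Of 49 genes of the core spliceosome and of the U6 or 7SK snRNP, 10 held 14 exons, with 2 called lower in spermatocytes and 1 in round spermatids, Larp7 included. Among 59 meiosis genes, 17 held 21 exons, with 1 called in each direction in spermatocytes. Of 28 piRNA and germ granule genes, 6 held 9 exons, with the Rnf17 exon called higher in spermatocytes. The lists of 26 nonsense-mediated decay genes (7 exons in 5 genes), 125 flagellum and cilium genes (37 exons in 31), 63 acrosome and spermatid genes (26 exons in 14) and 89 chromatin regulators (28 exons in 20) had 0 limma calls in either stage. Some called genes with such functions are not on the list of that process, among them Nme5, Slc9a8, Cep128, Swi5, Ino80e and Rcor3. The median difference of the list members in spermatocytes ran from -5.26 points for nonsense-mediated decay to 2.52 for the core spliceosome, beside -2.46 over all members. In nonsense-mediated decay genes, the Rnps1 exon of 122 nt was at 36.1% and 33.8% against 22.6% and 24.9% (limma adjusted p = 0.203) and the Magohb exon of 200 nt at 21.2% and 29.8% against 45.8% and 42.9% (limma adjusted p = 0.0942). Both encode factors that bind exon junctions, neither exon overlapped between the groups, and limma called neither. Among chromatin regulators a 116-nt exon of the histone methyltransferase gene Ehmt2 stood at 28.2% and 32.6% against 43.7% and 49.9% in round spermatids (limma adjusted p = 0.122).

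Between stages inclusion was described without a test, because the rule chose the exons by their stage levels. Of 2256 frame-shifting exons with a mean of at least 10 reads per library in both stages, 435 (19.3%) had levels at least 10 points apart with no overlap between the 4 libraries of one stage and the 4 of the other. Inclusion was higher in round spermatids in 264 of them and lower in 171. The same was found for 3.68% of 18850 cassette exons, 2.2% higher and 1.48% lower, and for 256 of 1695 exons divisible by 3. In 733 exons the stages lay within 5 points of each other. Of those in range in spermatocytes alone, 396 of 468 were above 90% in round spermatids, and of those in range in round spermatids alone, 244 of 316 were above 90% in spermatocytes.

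**Figure D3:**
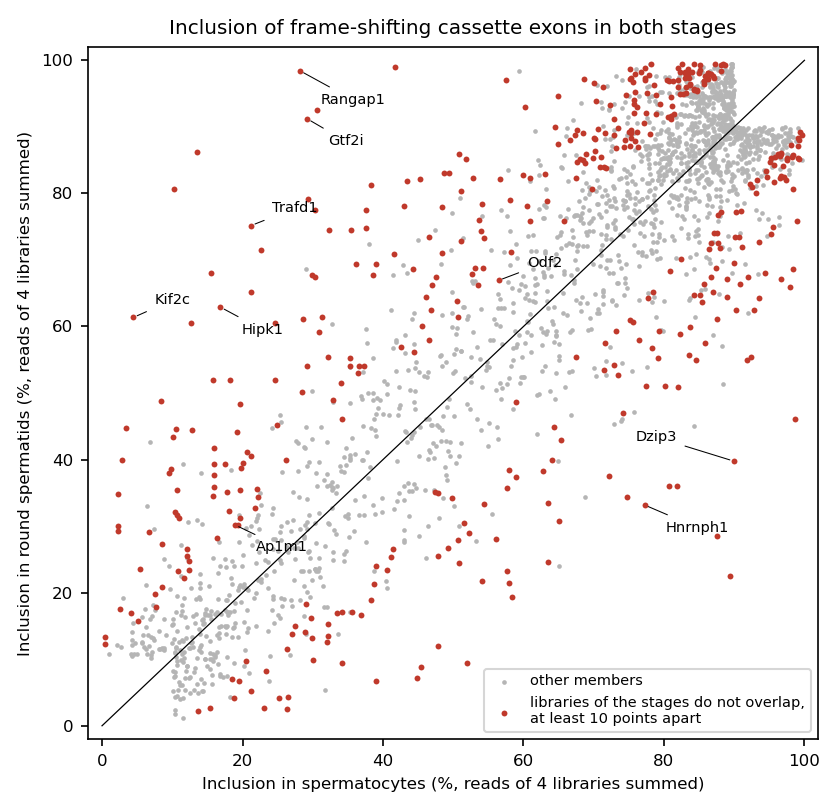
Inclusion level (percent) of frame-shifting exons with reads in both stages, in spermatocytes (horizontal axis) and round spermatids (vertical axis), 1 point per exon with the reads of 4 libraries summed. Red points are the 435 exons at least 10 points apart whose libraries do not overlap between stages. The corners at the upper right and lower left are empty because an exon must be within 10% to 90% in a stage.

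The 12 widest gaps between stages included exons with many and with few reads. A 209-nt exon of Rangap1, the activator of the Ran GTPase, was included at 18.6%, 25.2%, 37.8% and 34.1% in spermatocytes and at 94.6%, 99.5%, 98.6% and 98.8% in round spermatids, with 6265 reads. A 188-nt exon of Kif2c, a kinesin that takes microtubules apart, was at 2.94%, 3.80%, 4.75% and 6.04% in spermatocytes and at 48.0%, 54.7%, 72.2% and 64.9% in round spermatids. In round spermatids its sample groups did not overlap either, and limma did not call the exon (adjusted p = 0.136). A 196-nt exon of the transcription factor gene Gtf2i lay between 27.3% and 30.9% in spermatocytes and between 87.9% and 94.4% in round spermatids. For a 101-nt exon of Trafd1 these ranges were 18.8% to 26.9% and 70.0% to 79.5%. Rnf212b, a crossover factor gene, Sox2ot, Mttp, Lrp5, Smim1, Gm43067, Ctsh and Caps2 made up the rest with 592 reads or fewer each. The Gm43067, Ctsh and Caps2 exons were the ones lower in round spermatids. In Caps2, a 155-nt exon with 357 reads was at 66.2% and 74.6% against 100% and 100% in spermatocytes and between 8.24% and 34.7% in round spermatids.

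**Figure D4:**
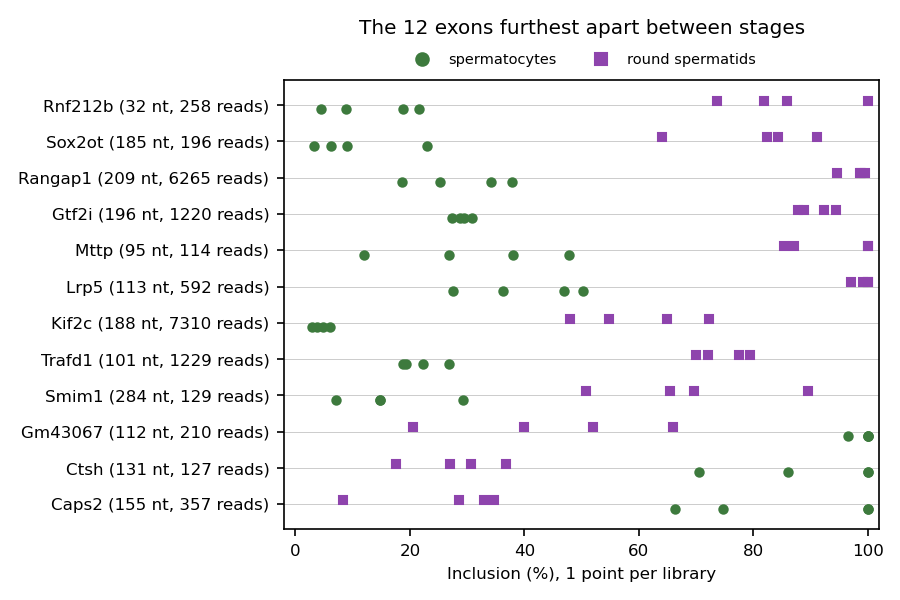
Inclusion level (percent, horizontal axis) of the 12 exons furthest apart between stages, 1 row per exon with its reads over both stages, and 1 point per library. Circles are the 4 spermatocyte libraries and squares the 4 round spermatid libraries. In 9 rows the squares lie to the right and in the rows of Gm43067, Ctsh and Caps2 to the left.

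The counts for each list stand beside 19.3% of all members and 3.68% of all cassette exons. Splicing regulators held 13 of the exons that differed between stages, 7 higher and 6 lower in round spermatids, of 42 with reads in both. Chromatin regulators held 2 higher and 1 lower of 21. A 139-nt exon of Hnrnph1, an hnRNP that binds G-rich RNA, stood at 79.4%, 76.5%, 77.6% and 76.2% in spermatocytes and at 34.1%, 30.5%, 35.2% and 35.6% in round spermatids. It lies inside an intron listed as retained, at 64.7%, 51.1%, 45.5% and 48.6% in spermatocytes and 24.5%, 12.3%, 16.1% and 17.0% in round spermatids, so inclusion and retention cannot be told apart here. The 127-nt exon of the same gene, whose donor is printed above, was higher in round spermatids, with 81.5% to 87.8% beside 68.8% to 76.1%. A 70-nt exon of Hnrnpl, a regulator that binds CA repeats, was higher in round spermatids, at 30.7% to 38.6% beside 14.6% to 21.9%. An 83-nt exon of its relative Hnrnpll was lower there, at 14.5% to 16.7% beside 30.3% to 35.1%. A 34-nt exon of Ptbp2, a polypyrimidine tract binding protein of neurons and germ cells, was at 85.1% in spermatocytes and 64.7% in round spermatids. Of the core spliceosome list 4 of 11 exons differed, each higher in round spermatids. They included the Snrnp70 exon (39.0% and 69.4%) and a 64-nt exon of U2af2, the gene of a protein that binds the polypyrimidine tract. The U2af2 exon was at 2.09%, 3.02%, 3.10% and 3.57% in spermatocytes and at 34.1%, 42.6%, 41.2% and 41.2% in round spermatids. The genes other than those in the 12 widest gaps were picked for description after their values were seen.

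Genes of the sperm tail and head held such exons too. On the flagellum and cilium list 3 of 30 exons were higher and 5 lower in round spermatids. A 146-nt exon of Meig1, a protein of the manchette of elongating spermatids, was at 42.9%, 53.4%, 56.3% and 52.3% in spermatocytes and at 11.1%, 7.47%, 9.90% and 10.9% in round spermatids. A 229-nt exon of the intraflagellar transport gene Ift20 was at 48.2%, 42.2%, 48.3% and 41.9% and then at 5.90%, 5.10%, 10.3% and 8.70%. In both genes the stages were far apart beside the spread within a stage. The Akap4 exon of 176 nt, in the gene of a major fibrous sheath protein, was at 48.0% in spermatocytes and 44.9% in round spermatids. On the acrosome and spermatid list 5 of 23 exons were higher and 1 was lower. They included a 110-nt exon of Crem, the gene of a transcriptional activator of spermatids, at 21.4%, 19.8%, 18.2% and 25.8% in spermatocytes and 60.3%, 63.7%, 71.8% and 65.5% in round spermatids. Catsperg1, a subunit gene of the sperm calcium channel, held 4 frame-shifting exons. Its exons of 110 and 127 nt were higher in round spermatids (50.5% and 63.8%, and 46.1% and 64.4%), and those of 145 and 73 nt overlapped between stages.

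On the piRNA and germ granule list 0 of 9 exons were higher and 4 were lower in round spermatids. Rnf17 held 3 of the 4. Its exons of 190, 169 and 164 nt were at 99.2%, 99.4% and 95.2% in spermatocytes and at 85.2%, 89.3% and 73.9% in round spermatids, and the 98-nt exon of the RNA helicase gene Tdrd9 at 96.9% and 84.2%. Among meiosis genes 1 of 19 exons was higher and 1 lower. A 70-nt exon of Sycp1, the transverse filament protein of the synaptonemal complex, was at 98.9% in spermatocytes and between 64.8% and 84.3% in round spermatids. The 200-nt exon of Magohb was the only one of 7 in nonsense-mediated decay genes to differ, at 32.4% and 74.5%. A 127-nt exon of the kinase gene Hipk1 was at 17.5%, 13.9%, 18.8% and 19.6% in spermatocytes and at 54.2%, 62.4%, 67.5% and 64.1% in round spermatids.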

How the data were processed

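Splicing events of 5 types (cassette exons, mutually exclusive exons, alternative 3′ and 5′ splice sites, retained introns) were read from 1 deposited table per type and stage, covering 8 libraries. The submitters' processing notes name STAR and mm10; the event caller is not given in the sources used here, nor is any version. Each deposited cell of inclusion or skipping reads holds 2 libraries, separated by a comma, per the file headers, so no column is a plain count column. The authors deposited a p-value and an FDR per event from their own test. The deposited score is the authors' difference between the mean inclusion fractions of the sample groups, per the file headers.

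Inclusion levels were computed from the reads and the deposited form lengths. The inclusion form was the exon length plus 149, so reads within an exon count as inclusion. The exon members, the gene lists and the fit were chosen with earlier results of these data known. A row had to pass the read and level filters in the same stage, and of an exon's passing rows the one with the most reads over both stages was kept.

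Events with a mean of at least 10 reads per library and a read of each form were tested with limma 3.58.1 in R 4.3.3. The fit used length-normalised log2 odds of inclusion, weights from the inverse counting variance, an average of 0.5 added reads scaled to the event's reads in each library, and eBayes with a trend on the mean reads of the rarer form. Benjamini-Hochberg adjustment ran over the tested events of the 5 types, with a call below 0.05. Intervals are 95% Wilson intervals, and the limit for 0 reads is 3 reads. Levels and counts were made in Python 3.11.15 with pandas 2.3.3, and plots with matplotlib 3.10.9. The fit was tested on simulated data. With a spread that was normal on the log odds scale it made few false calls. With a beta-distributed spread it made many more, nearly all at levels outside 10% to 90%, where the quasi-binomial test made few. The called exons of Rnf17 (164 nt) and Rbm5 (61 nt) lay at such levels in spermatocytes, at 95.2% and 93.3% with the libraries summed. The background shares over all events include such levels and may thus hold false calls. Their number was not tested, and the spread of the real libraries is not known.

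Named exons were the 15 called exons per stage with the widest gap and no overlap, those called in both stages, the 12 widest gaps between stages, the 2 most read exons of each gene list, the exons at the edges of the range, Larp7, and the 5 most read exons. Other named exons were picked after their values were seen. Coordinates are 1-based, in mm10. Gene types and positions along a gene came from RefSeq by symbol. Reading frames within coding sequence were not analysed here, since they need the genome sequence and transcript models.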

Additional observations from a re-analysis of the deposited data

How the results depend on the processing

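The number of exons was 2749 with a mean of 20 reads, 2873 when the most read row of an exon was kept before the filters, and 1921 with a range of 20% to 80%. In spermatocytes limma called 36 exons as reported, 47 with the cassette exon table alone (27 of the 36 among them), 2 without count weights, 59 when the rarer form needed 2 reads per library, and 0 when the trend followed total reads and the added reads were unscaled (579 with an unadjusted p below 0.05; the quasi-binomial test called 48). The authors' deposited table called 361 by an FDR below 0.05 and levels at least 0.1 apart, 295 lower and 66 higher in the first group, 31 of the 36 among them. Leaving out 1 library gave between 0 and 132 calls. In round spermatids the 11 calls became 20 with the cassette exon table alone, 5 without weights, 20 by the quasi-binomial test, 21 with 2 reads of the rarer form, 0 with both of these changes to trend and added reads (395 with an unadjusted p below 0.05) and 196 in the authors' deposited table, 126 lower and 70 higher. Leaving out 1 library gave between 0 and 41. The lone library that then stands for a group is assumed to vary like the others. The cause of these shifts was not tested. The quasi-binomial test kept each of the 36 and each of the 11 calls, and robust moderation kept 30 and 9. Between stages 180 exons remained apart by 20 points rather than 10, and leaving out 1 library gave between 475 and 528. Over the named exons and these alternatives, 287 values lost a call, 23 gained one and 1620 stayed on the same side of the threshold. Of the last, 49 had another sign than reported, 43 of them with a library left out (Odf2, Tulp2, March10, Hnrnph1 and Akap4 in spermatocytes, for example). None of the 49 was called by either fit.

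No paired analysis was possible because the deposited cells carry no replicate numbers and the sample groups no genotype. Depth limits the thin exons: several of the widest gaps between stages rest on 114 to 357 reads over 8 libraries.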

Other observations

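Neighbouring frame-shifting exons can restore the frame together. In 269 pairs of neighbours, 1 member was a flanking exon of the other's event, and in 128 of these pairs (47.6%) the summed length was a multiple of 3. Remainders of 1 nt and 2 nt were about equally frequent among all members (1662 and 1652). Pairs drawn without regard to their remainders would therefore give a similar share, and the count shows no preference for frame-restoring pairs. A further 235 members overlapped another member, as alternative edges of 1 exon do, and 890 were also listed as an exon of a mutually exclusive pair in spermatocytes.

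Some other exons with wide stage gaps were picked here after their values were seen. In Ccdc154, 3 frame-shifting exons of 119, 145 and 125 nt were at 29.9%, 30.3% and 42.9% in spermatocytes and at 67.7%, 67.4% and 78.0% in round spermatids. A 139-nt exon of the RNA helicase gene Dhx9 was at 18.3% and 52.0%. A second Gtf2i exon, of 200 nt, was at 2.32% and 34.8%. In Ifrd1 a 109-nt exon was at 80.7% and 36.0%, and in Dzip3 a 53-nt exon was at 89.9% and 39.8%, both lower in round spermatids.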
